A study of Homo sapiens with 4 samples.

Results

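Genes that encode proteins which bind double-stranded RNA were examined in SAS cells, a human oral squamous carcinoma line, after knockdown of 1 of them, STAU1. The 9 genes STAU1, STAU2, ADAR, ADARB1, DHX9, TARBP2, PRKRA, DICER1 and DROSHA were chosen by name, with earlier results of these data known. All 9 were matched from symbol to Ensembl identifier among the 67008 genes of the count table. RNA-sequencing was performed on SAS cells infected with viral shRNA, which targeted luciferase in the 2 Ctrl libraries and STAU1 in the 2 shSTAU1 libraries, both on a genotype labelled WT. The shRNAs in the study were expressed from the pLKO vector system. Only 1 shRNA per group is named in the labels, so an effect of losing STAU1 and any other effect of this shRNA cannot be told apart. The labels do not say whether the 2 libraries of a group came from separate cultures. The p-values therefore rest on the spread between these libraries, which may be technical. For each gene edgeR estimates this spread partly from the other tested genes.

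The double-stranded RNA-binding domain is a short fold that grips the RNA duplex by its shape and backbone, with little regard for sequence, and it recurs in proteins of very different function. The Staufen proteins use it to transport mRNAs and to direct their decay, the ADAR enzymes to deaminate adenosine to inosine in duplexes, DHX9 to unwind RNA, and DROSHA, DICER1 and the DICER1 partners encoded by TARBP2 and PRKRA to make microRNAs and other small RNAs. Several of these proteins can occupy the same kind of RNA, including the paired Alu repeats from which circular RNAs can form. The comparison asks whether the RNA levels of the other members moved when STAU1 was knocked down.

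The libraries held from 32206655 to 36301574 counts. TMM scaling in edgeR turned the counts into CPM, the number of reads a gene has per fixed number of reads in its scaled library, and 14303 genes, all 9 members among them, passed edgeR's filter on low counts and were tested. The 2 libraries within each group were further apart than sampling noise, and all 4 were kept as separate samples. The cell line field of the labels names C3H 10T1/2, a mouse fibroblast line, whereas the organism is given as human and the growth protocol names SAS cells. All 8 squamous epithelial markers examined had counts in every library, with a summed level from 7143 to 7488 CPM in Ctrl and from 8549 to 11483 CPM in shSTAU1. The 8 fibroblast markers summed to 17.9 and 22.8 CPM in Ctrl and to 11.1 and 10.2 CPM in shSTAU1, with THY1 and TWIST2 at 0 counts in every library. KRT5, a basal keratin, rose (log2 fold change 0.65, adjusted p = 0.0408 by quasi-likelihood in edgeR) and the collagen gene COL1A1 fell (log2 fold change -1.35, adjusted p = 0.036 from the same test). COL1A2, another fibrillar collagen gene of the fibroblast list, was higher in both shSTAU1 libraries without passing (log2 fold change 1.01, unadjusted p = 0.0416 and adjusted p = 0.185 in edgeR). KRT5 did not pass with library size in place of TMM, without a filter on low counts or without either Ctrl library (adjusted p from 0.0523 to 0.23), and COL1A1 did not pass without the filter or without Ctrl replicate 2 (0.0989 and 0.0928). The part of these shifts in the results on the 9 genes was not tested.

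STAU1 was the only member past the threshold in edgeR, DESeq2 and limma-voom with all 4 libraries and no block for the replicate number. It fell to 16.6% of its control level. The other 8 genes had log2 fold changes from -0.34 (DICER1) to 0.22 (TARBP2), and none passed an adjusted p of 0.05 in these fits. With the replicate number as a block, DICER1 passed as well (adjusted p = 0.00839 from edgeR's test), where 28.6% of tested genes did. Across all tested genes, edgeR without a block called 2.60% in either direction and 1.48% lower, and limma-voom called 2.54%. DESeq2 called 12.0% of the 12084 genes counted as tested in its fit. At an unadjusted p of 0.05 the members past the threshold were STAU1 and DICER1, against 24.5% of all tested genes. The median absolute log2 fold change of the 8 genes other than STAU1 was 0.11, beside 0.33 over all tested genes. The groups did not overlap for 4 of the 9 genes, with STAU1 and DICER1 lower and ADAR and ADARB1 higher in both shSTAU1 libraries, against 56.6% of tested genes, 28.0% being lower and 28.5% higher.

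**Figure D1:**
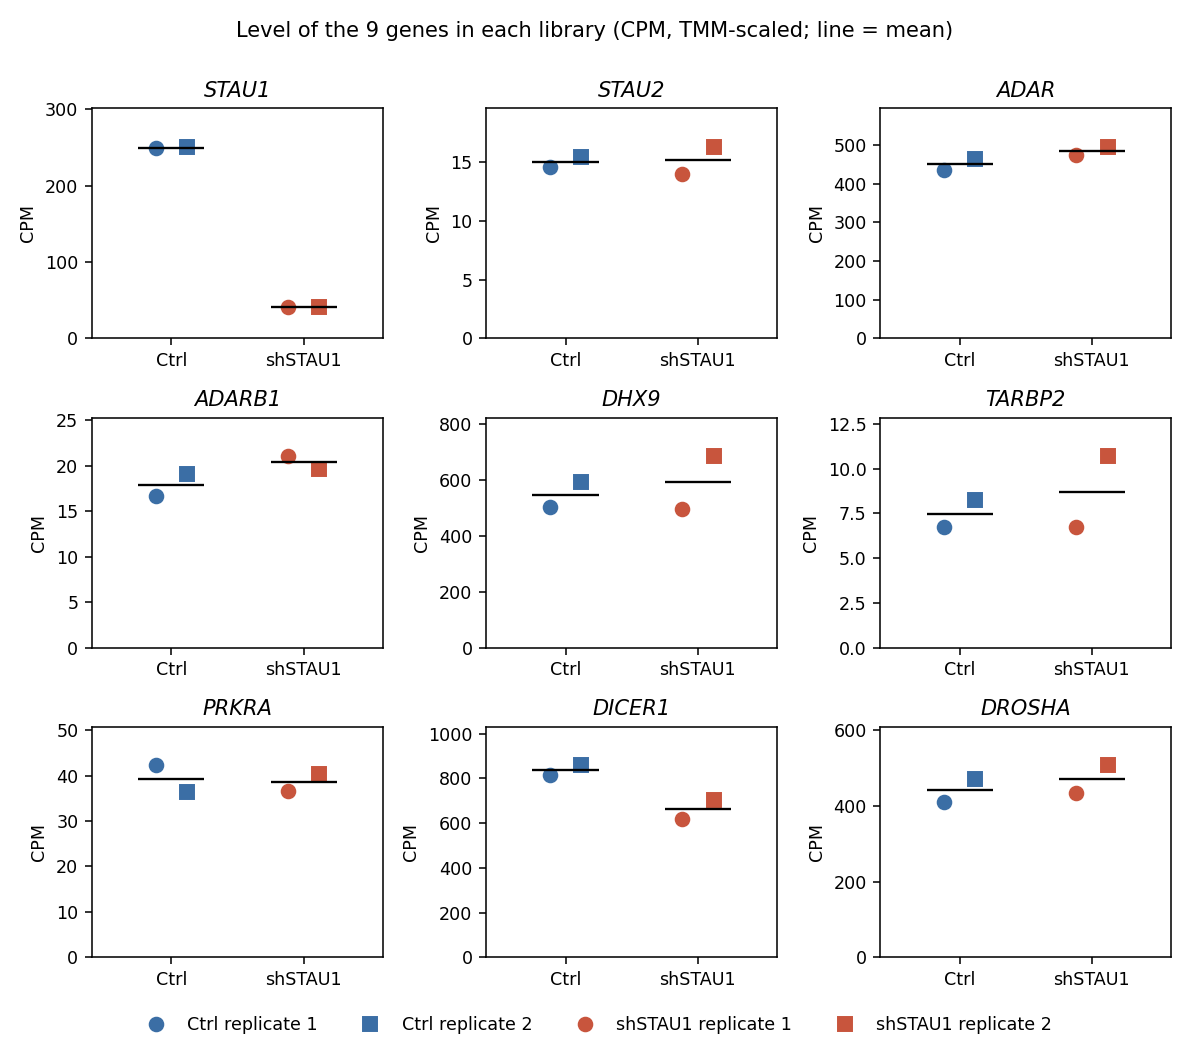
Level of each of the 9 genes in each library, in CPM on a linear axis from 0, with circles for replicate 1, squares for replicate 2 and a line at the mean of each group. STAU1 lies at 249 and 251 CPM in Ctrl and at 41.6 and 41.5 CPM in shSTAU1, both DICER1 points of shSTAU1 lie under those of Ctrl, and for STAU2, DHX9, TARBP2, PRKRA and DROSHA the groups overlap.

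STAU1 (ENSG00000124214), the gene targeted by the shRNA, is on the minus strand of chromosome 20, from 49113339 to 49188367 (GRCh38, as for all positions given). The Ctrl libraries held 8362 and 8218 of its counts, the shSTAU1 libraries 1449 and 1467. These counts correspond to Ctrl and shSTAU1 levels of 249.8 ± 1.65 and 41.6 ± 0.078 CPM (SD, n = 2 each), so the libraries of a group were almost equal and the groups lay far apart. The log2 fold change was -2.59 (95% interval -2.88 to -2.29, adjusted p = 0.00103 by quasi-likelihood in edgeR), and its p was the lowest of the 14303 tested genes. The fall serves as a check of the labels and is no finding on the family. Counting error was small even after knockdown, with a coefficient of variation of 2.61% in shSTAU1 replicate 2 from the number of reads alone.

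STAU2 (ENSG00000040341), the paralog of STAU1 with known roles in mRNA transport in neurons, lies on chromosome 8 from 73420369 to 73747708 on the minus strand. Its counts were 490 and 506 in Ctrl and 487 and 576 in shSTAU1, or 14.6 and 15.5 CPM against 14.0 and 16.3 CPM. The Ctrl libraries lay between the shSTAU1 libraries. No difference was detected (log2 fold change 0.01, adjusted p = 0.973 by quasi-likelihood in edgeR), and the 95% interval of the ratio of shSTAU1 to Ctrl ran from 0.747 to 1.36, which leaves room for moderate changes in either direction.

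The balance of the Staufen pair was then compared per length, since a longer transcript collects more reads. Per kilobase of annotated exon (4094 bases for STAU1 and 8998 for STAU2, all isoforms merged), STAU1 was 37.5 and 35.7 times as high as STAU2 in the Ctrl libraries and 6.54 and 5.60 times as high in the shSTAU1 libraries. STAU1 thus made up 97.3% ± 0.091 of the summed STAU1 and STAU2 level in Ctrl and 85.8% ± 1.34 in shSTAU1 (SD, n = 2 each). The libraries were made with a kit that enriches coding exons by capture, so the ratio was also computed per kilobase of coding sequence (1831 and 1990 bases), where it was 18.5 and 17.7 in Ctrl and 3.23 and 2.77 in shSTAU1. The size of the ratio depends on the length used, but on both scales STAU1 RNA remained above STAU2 RNA in each knockdown library. Capture efficiency of the individual genes is not known, and this limits all comparisons of level between genes.

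DICER1 (ENSG00000100697), the cytoplasmic RNase III that cuts microRNA precursors to their mature length, lies on chromosome 14 from 95086228 to 95158010 on the minus strand. It had the highest CPM of the 9 genes in Ctrl, with 27423 and 28083 counts, and 21549 and 24828 counts in shSTAU1. The corresponding levels were 815 and 858 CPM in Ctrl and 619 and 703 CPM in shSTAU1, so that both knockdown libraries lay below both control libraries. The level in shSTAU1 was 79.0% of that in Ctrl, a log2 fold change of -0.34 (95% interval -0.63 to -0.047, unadjusted p = 0.0283 and adjusted p = 0.152 by quasi-likelihood in edgeR). Of all tested genes, 50.9% had a smaller absolute log2 fold change. The difference did not pass the correction over these genes in this fit, which had no block for the replicate number. Without shSTAU1 replicate 2 it passed (log2 fold change -0.45, adjusted p = 0.0458 in edgeR, where 12.1% of tested genes passed), and it did not without any of the other 3 libraries (adjusted p from 0.252 to 0.586 from the same test).

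DROSHA (ENSG00000113360), the nuclear RNase III that releases microRNA hairpins from their primary transcripts, lies on chromosome 5 from 31400497 to 31532196 on the minus strand. It had 13778 and 15454 counts in Ctrl and 15070 and 17912 counts in shSTAU1, or 410 and 472 CPM against 433 and 507 CPM. The groups overlapped, and the log2 fold change was 0.09 (95% interval -0.23 to 0.42, adjusted p = 0.72 by quasi-likelihood in edgeR). The number of DROSHA counts per DICER1 count, which does not depend on the scaling of the libraries, was 0.502 and 0.550 in Ctrl and 0.699 and 0.721 in shSTAU1. This ratio was chosen after its values were seen and is given as a description, without a test.

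TARBP2 and PRKRA encode the related proteins TRBP and PACT, which bind DICER1 and also modulate the double-stranded RNA-activated kinase PKR in opposite directions. TARBP2 (ENSG00000139546, chromosome 12 from 53500921 to 53506431, plus strand) was the gene of fewest reads, with 226 and 270 counts in Ctrl and 234 and 378 counts in shSTAU1. Its levels of 6.72 and 8.25 CPM in Ctrl and 6.72 and 10.7 CPM in shSTAU1 overlapped, shSTAU1 replicate 2 being the highest. The log2 fold change of 0.22 had the widest interval of the 9 genes (-0.44 to 0.87, adjusted p = 0.668 by quasi-likelihood in edgeR). PRKRA (ENSG00000180228, chromosome 2 from 178431414 to 178451512, minus strand) had 1421 and 1194 counts in Ctrl and 1274 and 1428 counts in shSTAU1. At 42.3 and 36.5 CPM against 36.6 and 40.4 CPM both groups covered nearly the same range, with a log2 fold change of -0.03 (95% interval -0.39 to 0.33, adjusted p = 0.919 by quasi-likelihood in edgeR). Per kilobase of exon, PRKRA was 6.53 and 4.59 times as high as TARBP2 in Ctrl and 5.65 and 3.92 times as high in shSTAU1.

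ADAR (ENSG00000160710, chromosome 1 from 154582057 to 154628013, minus strand) encodes ADAR1, the main editing enzyme of repeat-derived duplexes, with an interferon-inducible and a constitutive isoform that gene-level counts do not separate. It had 14616 and 15201 counts in Ctrl and 16471 and 17503 counts in shSTAU1, or 435 and 464 CPM against 473 and 495 CPM. Both shSTAU1 libraries were higher, but the gap between the groups was smaller than the distance between the libraries of either group. The log2 fold change of 0.11 did not pass (95% interval -0.17 to 0.39, adjusted p = 0.615 by quasi-likelihood in edgeR). ADARB1 (ENSG00000197381, chromosome 21 from 45073853 to 45226560, plus strand) encodes ADAR2, known for recoding of neuronal receptor transcripts. It had 559 and 624 counts in Ctrl and 733 and 694 counts in shSTAU1. Its levels were 16.6 and 19.1 CPM in Ctrl and 21.1 and 19.6 CPM in shSTAU1, which do not overlap but lie close together (log2 fold change 0.19, 95% interval -0.22 to 0.59, adjusted p = 0.535 by quasi-likelihood in edgeR). Per kilobase of exon, ADAR was 27.1 and 25.3 times as high as ADARB1 in Ctrl and 23.3 and 26.2 times as high in shSTAU1. Within the RNA level of the editing pair, ADAR was therefore the prevailing member in all 4 libraries.

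DHX9 (ENSG00000135829, chromosome 1 from 182839369 to 182887751, plus strand) encodes RNA helicase A, which unwinds duplexes including those of paired Alu repeats. It had 16885 and 19375 counts in Ctrl and 17283 and 24227 counts in shSTAU1. The levels were 502 and 592 CPM in Ctrl and 496 and 686 CPM in shSTAU1, and the shSTAU1 libraries enclosed both Ctrl libraries. The log2 fold change was 0.11 (95% interval -0.30 to 0.52, adjusted p = 0.731 by quasi-likelihood in edgeR). Its sign rests on shSTAU1 replicate 2, without which it was -0.16, and it was also slightly negative (-0.018) without Ctrl replicate 1.

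**Figure D2:**
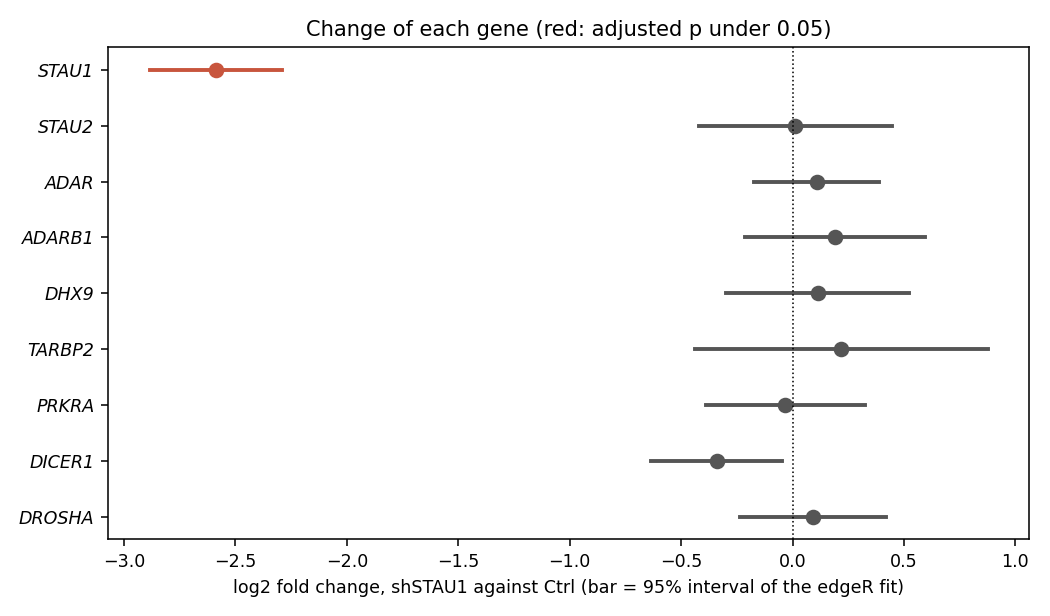
Log2 fold change of each gene in shSTAU1 against Ctrl (horizontal axis), with the 95% interval of the edgeR fit as a bar, and red for an adjusted p under 0.05. STAU1 stands at -2.59, the interval of DICER1 ends at -0.047 on the side of 0, and the intervals of the other 7 genes include 0.

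Compared per kilobase of exon in Ctrl, 5 members stood highest, PRKRA stood below them and 3 members were lowest. DHX9 was at 96.9 ± 11.2 CPM per kilobase, DICER1 at 68.1 ± 2.43, STAU1 at 61.0 ± 0.40, DROSHA at 56.7 ± 5.66 and ADAR at 46.4 ± 2.16, while PRKRA was at 9.99 ± 1.04 (SD, n = 2 each). TARBP2 at 1.83 ± 0.26, ADARB1 at 1.78 ± 0.17 and STAU2 at 1.67 ± 0.069 CPM per kilobase could not be ordered, as their libraries overlapped. STAU1 and DROSHA were barely apart, with 60.7 CPM per kilobase in both the lower STAU1 and the higher DROSHA library. In shSTAU1, STAU1 stood at 10.2 ± 0.019 CPM per kilobase, overlapping with PRKRA at 9.77 ± 0.68. Per kilobase of coding sequence 3 of the 9 genes kept their place in the Ctrl order, but the same 5 genes were highest and the same 3 lowest. Among the highest, DHX9 overlapped with both DICER1 and STAU1, and ADAR overlapped with DROSHA.

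**Figure D3:**
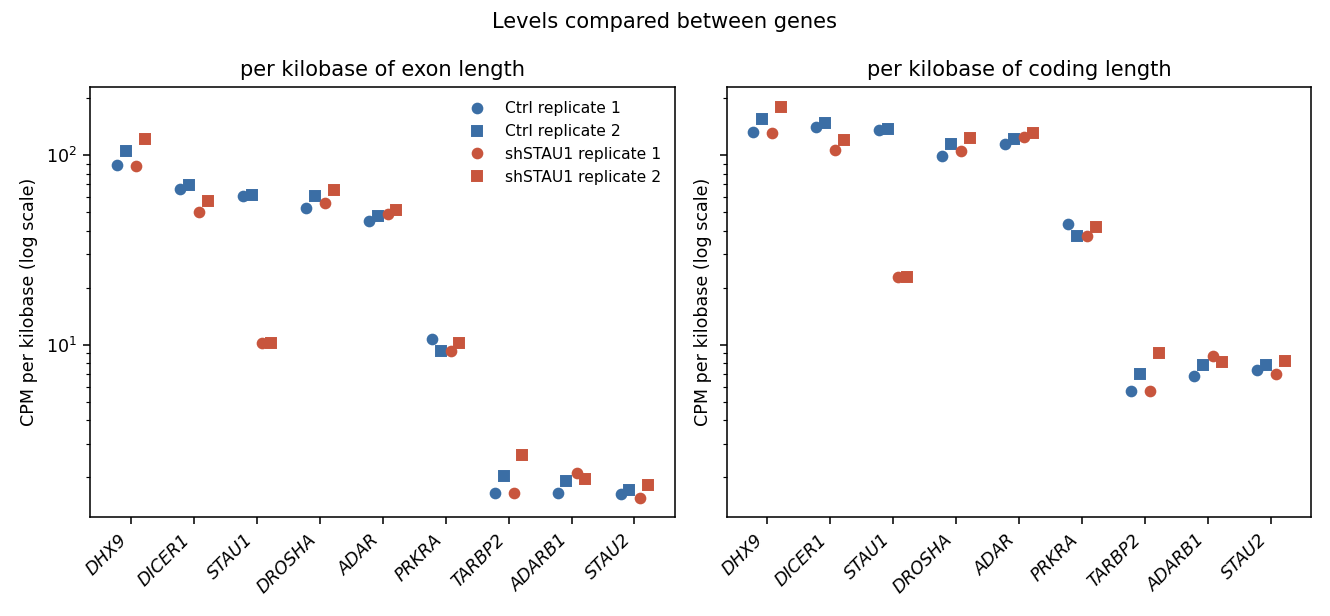
Level of the 9 genes per kilobase of exon length (left) and of coding length (right), in CPM per kilobase on a log axis, with 1 point per library, blue for Ctrl and red for shSTAU1. In shSTAU1 the STAU1 points drop to 10.2 CPM per kilobase of exon and 22.7 CPM per kilobase of coding sequence, which is above STAU2 in both panels.

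Leaving out 1 library at a time showed how far each value depended on a single sample. STAU1 stayed between -2.61 and -2.58. ADAR and ADARB1 stayed positive and DICER1 stayed negative in all 4 of these fits, while STAU2, DHX9, TARBP2, PRKRA and DROSHA each took both signs. The widest range was that of TARBP2, from -0.17 without shSTAU1 replicate 2 to 0.52 without shSTAU1 replicate 1.

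**Figure D4:**
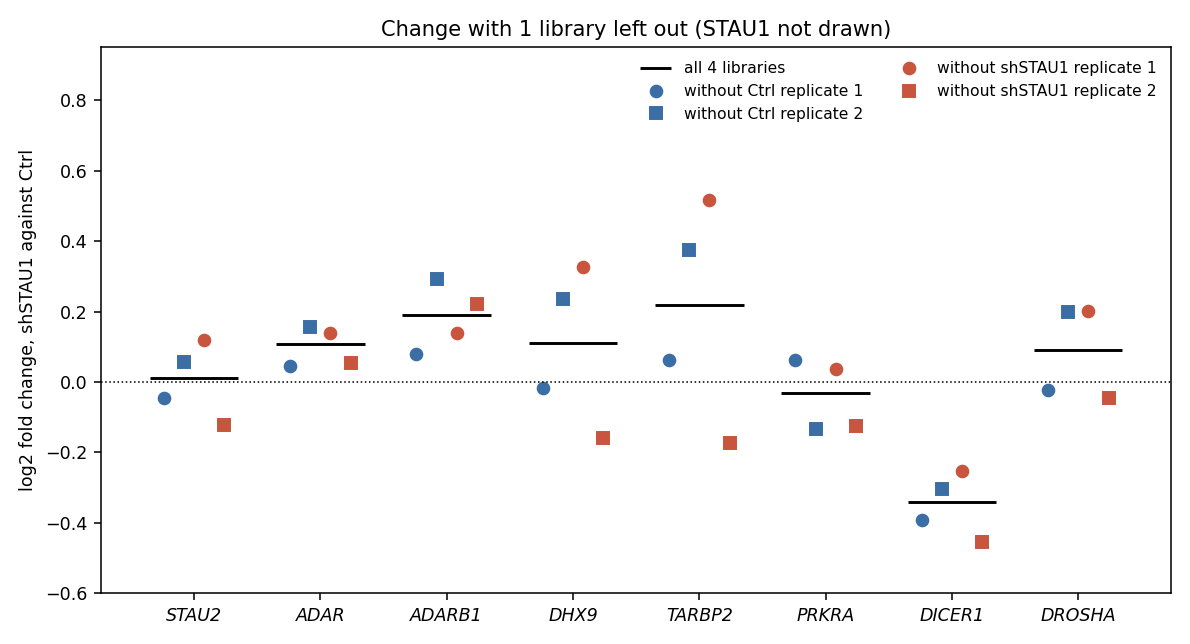
Log2 fold change of the 8 genes other than STAU1 with all 4 libraries (line) and with 1 library left out (points, blue for a Ctrl and red for an shSTAU1 library, circles for replicate 1 and squares for replicate 2). DICER1 lies below 0 at every point, from -0.45 to -0.25, and 5 genes have points on both sides of 0.

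Reads of overlapping genes could in principle be counted on a member, as the strand setting of the counting is not given in the sources used here. In GENCODE 29, 15 other genes overlap 7 of the members, and 3 of these had at least 10 counts in a library. ARPC3P1, a pseudogene on the opposite strand within STAU1, had 97 and 45 counts in Ctrl and 103 and 57 in shSTAU1. The antisense gene CHROMR and the gene PJVK, which face PRKRA, had from 22 to 62 and from 21 to 34 counts. ARPC3P1 shares no exon base with STAU1, CHROMR shares 85 and PJVK 132 exon bases with PRKRA, and all 3 had far fewer reads than the member. DICER1-AS1 had at most 5 counts in any library. The pseudogene DHX9P1, which carries the name of a member, had from 8 to 22 counts.

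Other genes of the same families and pathways were examined as 4 lists, which were also chosen with earlier results of these data known. Of 14 further genes with a double-stranded RNA-binding domain, 11 were tested. None was called by edgeR without a block, by DESeq2 or by limma-voom. An unadjusted p under 0.05 in edgeR's test was found for 1, beside 24.5% of all tested genes. The median log2 fold change was -0.037, beside 0.006 over all tested genes. The third gene of the ADAR family, ADARB2, had 2 counts in Ctrl replicate 1 and none in the other libraries, and the testis proteins ADAD1 and ADAD2, which are related to the ADARs, had 0 counts in every library. Of 19 genes of the microRNA pathway outside the members (pre-microRNA export, Argonaute and GW182 proteins, and factors acting on precursors), 17 were tested. edgeR without a block and limma-voom called none, and DESeq2 called 2, where 12.0% of all its tested genes were called. An unadjusted p under 0.05 in edgeR's test was found for 5, with 3 of them higher and 2 lower, beside 24.5% of all tested genes. The lowest p in this list was that of KHSRP, which encodes a protein that binds the terminal loop of some microRNA precursors. KHSRP had 4871 and 5876 counts in Ctrl and 8469 and 10849 counts in shSTAU1, with a log2 fold change of 0.76 (95% interval 0.37 to 1.15, adjusted p = 0.0581 by quasi-likelihood in edgeR). It passed with DESeq2 (adjusted p = 0.00158), which called 12.0% of its tested genes. It also passed in edgeR without shSTAU1 replicate 2 (0.0165) and without shSTAU1 replicate 1 (1.86e-06), fits in which 12.1% and 18.4% of tested genes passed. It did not pass without Ctrl replicate 1 (log2 fold change 0.60, adjusted p = 0.249 in edgeR) or without Ctrl replicate 2 (0.0669). The median of the list was -0.10.

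Among 18 further helicases of the DExH family to which DHX9 belongs, 15 were tested and 1 was called, beside 2.60% of all tested genes. DHX40, a helicase of little-known function, had 1234 and 1163 counts in Ctrl and 3342 and 2369 counts in shSTAU1, and rose by 1.17 on the log2 scale (95% interval 0.73 to 1.62, adjusted p = 0.0358 by quasi-likelihood in edgeR). The other 14 did not pass in this test, and the median of the list was -0.043. DESeq2 called 2 of the helicases, where 12.0% of all its tested genes were called. In edgeR's test 2 had an unadjusted p under 0.05, both higher, beside 24.5% of all tested genes. Of 20 proteins of RNA transport granules, in which Staufen proteins travel, all were tested and 2 were called, beside the same 2.60%. DESeq2 also called 2 of them, beside 12.0% of its tested genes. An unadjusted p under 0.05 in edgeR's test was found for 6, with 5 of them higher and 1 lower, beside 24.5% of all tested genes. G3BP1, a scaffold protein of stress granules, rose from 11803 and 13280 counts in Ctrl to 21860 and 30004 counts in shSTAU1 (log2 fold change 0.97, 95% interval 0.57 to 1.36, adjusted p = 0.0366 by quasi-likelihood in edgeR). KIF5B, the heavy chain of the kinesin motor that carries such granules along microtubules, fell from 9152 and 9795 counts to 4730 and 6096 counts (log2 fold change -0.89, 95% interval -1.25 to -0.53, adjusted p = 0.036 from the same test). The median of the list was 0.19, beside 0.006 over all tested genes, with 15 genes positive and 5 negative. This median was 0.14 with library size in place of TMM. With 1 library left out it ran from 0.11 (without shSTAU1 replicate 2) to 0.27 (without shSTAU1 replicate 1). Without a filter on low counts, where 24804 genes were tested, none of DHX40, G3BP1 and KIF5B passed (adjusted p from 0.0989 to 0.105 in edgeR's test), and G3BP1 was also short of the threshold without Ctrl replicate 1 (0.0966), as was KIF5B without Ctrl replicate 2 (0.087).

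**Figure D5:**
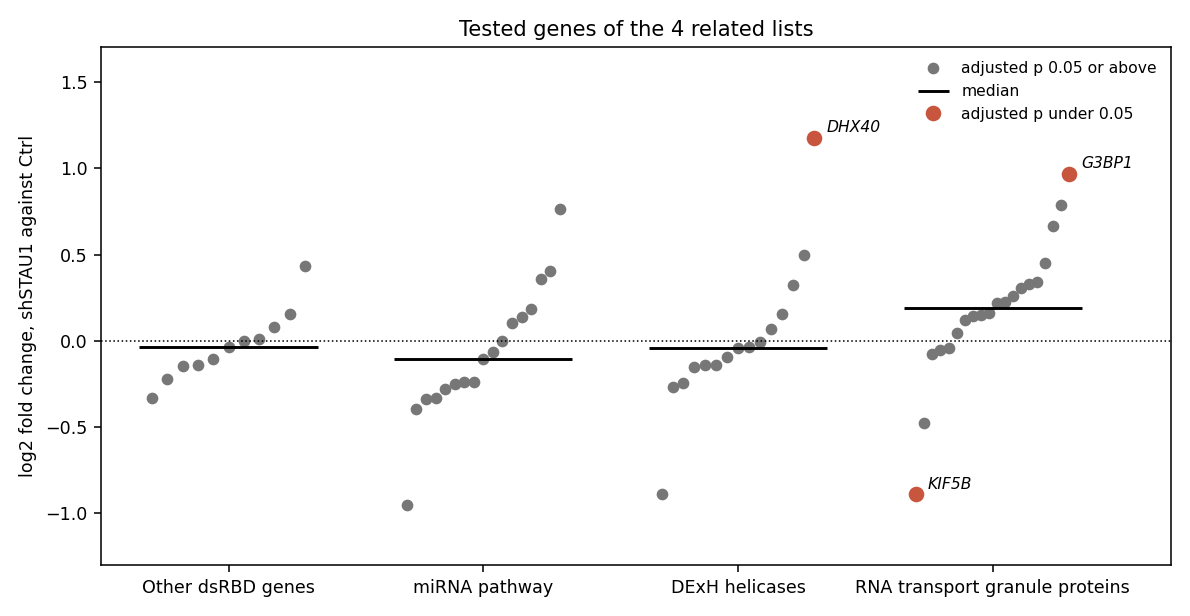
Log2 fold change in shSTAU1 against Ctrl (vertical axis) of the tested genes of the 4 related lists, ordered by value within a list, with a line at the list's median and red for an adjusted p under 0.05. The 3 red points are DHX40 at 1.17, G3BP1 at 0.97 and KIF5B at -0.89.

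Genes whose level over the 4 libraries was most like that of STAU1 were found by the Euclidean distance between log2 CPM values centred on each gene's mean. The nearest 4 were PRDM8 (distance 0.035), GSDMB (0.306), ENSG00000270802 (0.308) and the neutrophil chemokine gene CXCL8 (0.314), and they were also among the nearest 5 with library size in place of TMM. PRDM8 had 163 and 159 counts in Ctrl and 26 counts in each shSTAU1 library. CXCL8 had 413 and 339 counts in Ctrl and 74 and 58 counts in shSTAU1. ENSG00000270802 had few reads, with 16 and 20 counts in Ctrl and 2 counts in each shSTAU1 library. Its fitted log2 fold change was -3.17, beside -2.59 for STAU1, and did not pass (95% interval -4.95 to -1.40, adjusted p = 0.0671 by quasi-likelihood in edgeR). The likeness is over 4 libraries and consists of a fall of similar size on the log2 CPM scale. No other member was among the nearest 5, which follows from their log2 fold changes, from -0.34 (DICER1) to 0.22 (TARBP2).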

How the data were processed

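RNA of 2 Ctrl and 2 shSTAU1 libraries was sequenced after capture with the TruSeq RNA Exome kit, per the labels. The authors deposited raw counts, whole numbers per gene that had not been normalized. The submitters' processing notes name Partek and hg38. The aligner, counting program, annotation release and strand setting are not given in the sources used here. No sample column was left unmapped. Symbols, positions and lengths were taken from GENCODE 29 (GRCh38) and the supplied name table. Lengths merge all isoforms.

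Tests were run with edgeR 4.0.16 in R 4.3.3 (filterByExpr, TMM, quasi-likelihood test without a block, Benjamini-Hochberg over all tested genes, threshold 0.05). Standard errors and 95% intervals were derived from the quasi-likelihood F statistic and are not adjusted for multiple testing. A test for these libraries in particular is not given in the sources used here. An exact two-sided permutation test on groups of 2 cannot go below p = 0.333. Log2 CPM for distances used a prior count of 2. The members and lists were chosen with earlier results of these data known. Named genes were the members, the called genes of each list or the one of lowest p, overlapping genes with at least 10 counts and the 5 nearest to STAU1. Some genes under this rule are not reported here, and ADARB2, ADAD1, ADAD2, DICER1-AS1, DHX9P1 and the cell type markers were named outside it. Alternatives were DESeq2 1.42.0, no filter, library size in place of TMM, limma-voom (limma 3.58.1), the replicate number as a block, a fold of 1.5 with an unadjusted p under 0.05, coding in place of exon length, and leaving out each library.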

Additional observations from a re-analysis of the deposited data

How the results depend on the processing

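STAU1 stayed lower and past the threshold in every tested alternative, its log2 fold change ranging from -2.64 (library size in place of TMM) to -2.58. The other members stayed short of it, except DICER1, which passed with the replicate number as a block (log2 fold change -0.34, adjusted p = 0.00839 from edgeR's test) and without shSTAU1 replicate 2. With 1 library left out, DICER1 ran from -0.45 to -0.25, STAU2 from -0.12 to 0.12, DHX9 from -0.16 to 0.33, TARBP2 from -0.17 to 0.52, PRKRA from -0.13 to 0.062 and DROSHA from -0.045 to 0.20. These fits assume that the lone library of a group varies like the others. Scaling by library size moved the median of all genes by -0.052 and STAU2 by a like amount, to -0.041.

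The number of genes past the threshold moved from 372 to 1449 with DESeq2, 11 without a filter, 2098 by a fold of 1.5 with an unadjusted p under 0.05, and from 214 (without Ctrl replicate 1) to 2625 (without shSTAU1 replicate 1) with 1 library left out, being 226 without Ctrl replicate 2 and 1734 without shSTAU1 replicate 2. The cause was not tested. The member and list counts below belong beside these totals, which moved in the same settings. Whether a list differed from all tested genes in these settings was not tested. With DESeq2 12.0%, without a filter 0.0443% and by the fold criterion 14.7% of all tested genes were past the threshold. Members past it were 1 or 2 with 1 library left out. Among further double-stranded RNA-binding genes 0 to 1 were called with 1 library left out. In the microRNA list 2 were called with DESeq2 and 2 by the fold criterion, and 0 to 3 with 1 library left out. Of the DExH helicases 2 were called with DESeq2, 0 without a filter and 1 to 2 with 1 library left out. Of the granule proteins 0 were called without a filter and 1 to 5 with 1 library left out. The median of the helicases, near 0, was 0.0051 and 0.015 without Ctrl replicate 2 and without shSTAU1 replicate 1.

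Per coding length STAU1 made up 94.8% of the Staufen level in Ctrl and 74.9% in shSTAU1, and 3 members kept their place in the order. From single libraries on exon length the shares were 97.3% and 97.4%, and 84.8% and 86.7%.

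Ctrl and shSTAU1 use the same replicate numbers, which no source ties to a batch. The differences between replicates had a correlation of 0.27 between the groups, across 14303 genes that are not independent replicates. With the number as a replicate block, 4087 genes (28.6% of those tested) passed, 2 of them members, and 2, 7, 3 and 6 genes in the lists of further double-stranded RNA-binding genes, microRNA pathway, helicases and granule proteins. Among the members counting error was largest for TARBP2, at 226 to 378 counts. Its coefficient of variation from the number of reads alone ran from 5.14% to 6.65%. The 2 shSTAU1 libraries of TARBP2 lay 0.67 apart on the log2 scale.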

Other observations

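In both groups, most of these genes were higher in the library with the replicate number 2. This was not a planned result and was not tested. The genes share 1 pair of libraries per group and are not replicates, and some differences were small (STAU1 in Ctrl, 0.013 on the log2 scale). In Ctrl, 8 of the 9 members were higher in replicate 2 than in replicate 1, and in shSTAU1 7 of 9 were, while 49.7% and 49.4% of all tested genes were. PRKRA was the exception in Ctrl, and STAU1 and ADARB1 were in shSTAU1. The differences between replicates were of ordinary size, with a median absolute log2 difference of 0.20 in Ctrl and 0.18 in shSTAU1 for the members, beside 0.21 and 0.28 for all tested genes. The largest were those of TARBP2 (0.67) and DHX9 (0.47) between the shSTAU1 libraries.

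The 9 genes together held 2491 and 2716 CPM in Ctrl and 2141 and 2519 CPM in shSTAU1. STAU1 supplied 9.98% and 9.24% of this sum in Ctrl and 1.94% and 1.65% in shSTAU1. DICER1, the largest contributor of reads, supplied 32.7% and 31.6% in Ctrl and 28.9% and 27.9% in shSTAU1. These shares are not per length, and DICER1 has the longest exon length of the 9 genes (12294 bases).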
